A study of Mus musculus with 768 samples.

Results

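High endothelial cells are the tall lining cells of the lymph node venules through which lymphocytes leave the blood. The lymph node high endothelial cells described here are 65 cells of plate pool1 and 82 of plate pool2, out of 96 wells on each, in a series of 768 single-cell libraries. They are 76.6% of the wells of 1 sorting gate, LN_HEV. The gate was negative for CD45, a leukocyte surface protein, and positive for CD31 and for MECA-79, an antibody that binds sulfated glycans of these vessels. A kept well needed 50000 counts or more, 1000 detected genes or more and no more than 30% mitochondrial counts. It also needed 10 CPM, which are counts scaled to the total of the cell, for 2 or more of Pecam1, Cdh5, Tie1, Egfl7 and Eng, 5 genes shared by all endothelium. Too few counts removed 15 wells of pool1 and 9 of pool2, too few genes 5 and 4, the endothelial rule 0 and 1, and the mitochondrial limit none, while 11 libraries of pool1 were left out by number for the reason given below. The other gates were TU_HEV, MECA-79-positive cells of PyMT tumours, and TU_EC, MECA-79-negative endothelial cells of the same tumour model, which is a transgenic mouse model of breast cancer. The labels give no strain, sex, age or treatment, do not say which lymph nodes were taken or whether the mice that gave them carried tumours, and name no animal. Each gate was therefore 1 sample, the plates are not replicates, and no p-value was computed.

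High endothelial cells capture lymphocytes in steps. L-selectin on the lymphocyte binds sulfated and fucosylated glycans carried by sialomucins on the vessel wall, chemokines displayed on that wall then switch on integrins, and the cell stops and crosses. Lymphotoxin, made by dendritic cells and other leukocytes of the node, keeps these vessels in their high form through NF-kB.

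The kept cells had between 96741 and 1678516 counts each, with medians of 1025532 in pool1 and 1094529 in pool2, and 61010977 counts in all in pool1 and 87902916 in pool2. The median cell had 3723 genes with a count in pool1 and 4116 in pool2. Features of ribosomal RNA took 29.5% of counts in pool1 and 7.50% in pool2, which lowers CPM and TPM of other genes in pool1. Each of the 11 left-out libraries of pool1 covered 1 or more of 19 libraries of TU_HEV, gene by gene. Of the genes with at least 10 counts in the tumour library, at least 97.4% had as many counts or more in the left-out library. In all 19 cases the number of the tumour library began with the number of the lymph node library. No kept cell came above 89.3% by the same measure. Of the kept cells, 6 would fail a limit of fewer than 3 of 6 leukocyte, mural or epithelial genes at 10 CPM, 5 of them for leukocyte genes and 1 for mural genes. The rule keeps these cells.

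The label of the gate fitted its defining genes. For shares of cells, each cell was thinned at random to 100000 counts, so that 1 thinned count stands for 10 CPM, and 1 cell was too shallow, which left 64 cells of pool1 and 82 of pool2. At least 4 of the 5 markers Glycam1, Chst4, Fut7, Ccl21a and Ackr1 had a thinned count in 61 of 64 cells of pool1 and 82 of 82 of pool2, or 97.9% of all (exact binomial 95% interval 94.1 to 99.6%), and the other 3 cells had 3 markers. By the same measure 1 of 98 cells of TU_HEV and 0 cells of TU_EC had 4 markers, with an upper limit of 1.21% for TU_EC. These intervals cover counting error only, over cells of 1 sample, and since no molecular identifiers were used, PCR copies of 1 molecule count more than once.

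The markers differed in level and in spread. Glycam1 (chr15:103562759-103565081, minus strand, GRCm38), a secreted sialomucin that carries L-selectin ligands, had a thinned count in every cell, with a lowest, median and highest level of 710, 72930 and 139990 CPM in pool1 and of 20, 55505 and 173660 CPM in pool2. Chst4 (chr8:110029153-110039740, minus strand), which adds the sulfate that MECA-79 binds, was found in 98.6% of cells, with medians of 760 CPM in pool1 and 1185 CPM in pool2. Fut7 (chr2:25423267-25426374, plus strand), which adds the fucose that L-selectin needs, was found in 96.6% of cells, with medians of 695 CPM in pool1 and 1130 CPM in pool2. RNA of both enzymes was thus found in nearly all cells of both plates. Ackr1 (chr1:173331886-173333750, minus strand), an atypical receptor that moves chemokines across venular endothelium, was found in 93.8% of cells, with medians of 430 CPM in pool1 and 705 CPM in pool2. Ccl21a (chr4:42772860-42773993, minus strand), the chemokine that draws T cells and dendritic cells through the receptor CCR7, was found in 82.9% (75.8 to 88.6%), the lowest share of the 5.

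**Figure D1:**
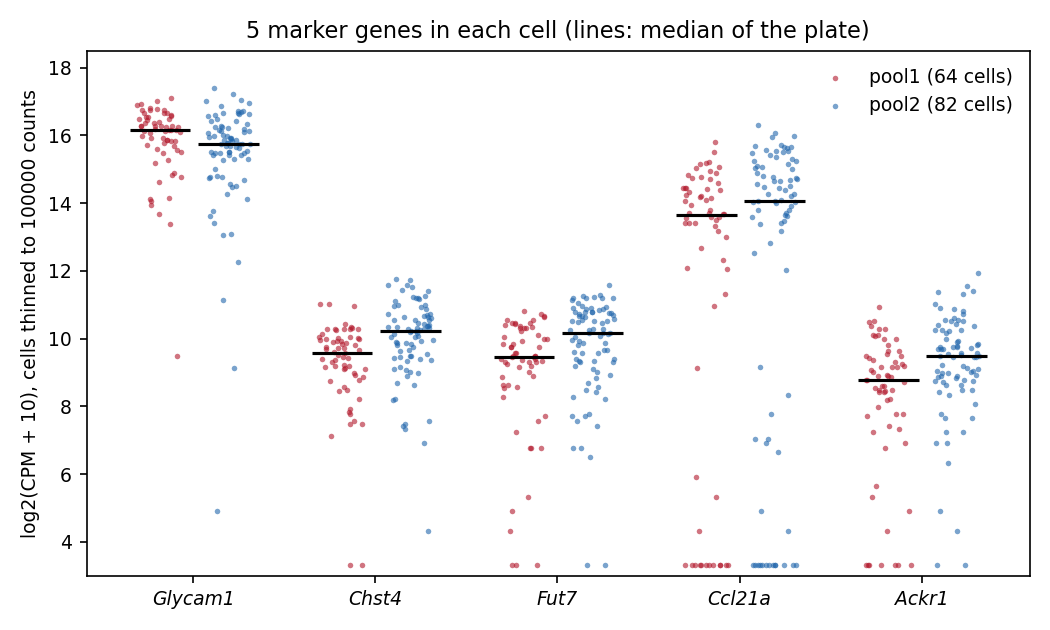
Level of the 5 marker genes in each cell, as log2(CPM + 10) of counts thinned to 100000, with pool1 (64 cells) left of pool2 (82 cells) for each gene and a line at the median of the plate. Glycam1 lies near the top in almost every cell, Chst4, Fut7 and Ackr1 form single clouds with a few cells at 0, and Ccl21a splits into a high cloud and a low one on both plates.

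A few secreted products made up much of the RNA. Together Glycam1, Clu and Ccl21a took 11.6% of all counts in pool1 and 12.0% in pool2, with a lowest, median and highest cell of 1.58, 12.0 and 18.7% in pool1 and 0.187, 11.5 and 27.6% in pool2. Per length, as TPM of the counts summed over cells, Glycam1 stood at 69433 in pool1 and 64204 in pool2, and at 66448 over both. That is 39.6 times the level of the 20th gene in the ranking and 61.9 times that of Chst4. Ccl21a followed at 32922 TPM and Clu, clusterin, a secreted chaperone and apolipoprotein, at 22017 TPM. Without length Clu stood above Ccl21a, at 34501 CPM against 19093 CPM. Only Glycam1, Ccl21a, Clu and B2m, which pairs with class I heavy chains, were above 10000 TPM among the genes ranked, with B2m at 16300 TPM.

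The promoter window of Glycam1 is shown because the gene leads all others. It holds 3 CCAAT boxes, the core sequence that the factor NF-Y binds, given in capitals (CCAAT, or ATTGG for the other strand). The window covers the 250 bases before the gene start in RefSeq, chr15:103565082-103565331 on the minus strand of GRCm38.p6, written 5′ to 3′ along the gene.
Glycam1: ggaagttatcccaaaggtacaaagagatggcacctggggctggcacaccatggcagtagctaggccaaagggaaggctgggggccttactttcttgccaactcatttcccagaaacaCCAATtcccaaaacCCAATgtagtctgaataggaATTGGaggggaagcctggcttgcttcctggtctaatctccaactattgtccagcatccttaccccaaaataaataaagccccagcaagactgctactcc
At least 1 CCAAT on either strand was found in 33.8% of 32851 RefSeq windows of the same length, and in none of the windows of Chst4, Fut7, Ccl21a and Ackr1. A match describes the letters only.

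The other genes of the top 20 fell into a few kinds. Antigen presentation gave H2-D1 at 6952 TPM and H2-K1 at 2508 TPM, the classical class I heavy chains. Ubd, an interferon-inducible ubiquitin-like modifier, stood at 3152 TPM, Ifitm3 at 3145 TPM and its near relative Ifitm2 at 1680 TPM, both membrane proteins that restrict viral entry. Vascular genes were Lrg1, a secreted glycoprotein of inflamed vessels, at 5931 TPM, Igfbp7, a secreted binding protein of the vessel wall, at 5325 TPM, and Plvap, which forms the diaphragms of endothelial pores, at 2886 TPM. Secreted or lipid-linked products were Apoe at 5586 TPM, Serpina1b, an antitrypsin, at 2988 TPM, and Mfge8, a bridging protein for dying cells, at 1945 TPM. Il2rg, the common chain of several interleukin receptors, reached 2025 TPM and had a thinned count in every cell. The remainder were housekeeping genes, Eef1a1 at 5120 TPM, Tmsb4x at 4291 TPM, Actb at 2846 TPM and Ftl1 at 2239 TPM. Counts of Ccl21a, Serpina1b, the H2 genes, Ifitm2, Ifitm3, Actb and Ftl1 are uncertain in part, since these genes have near-identical copies or pseudogenes with which reads can be shared.

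**Figure D2:**
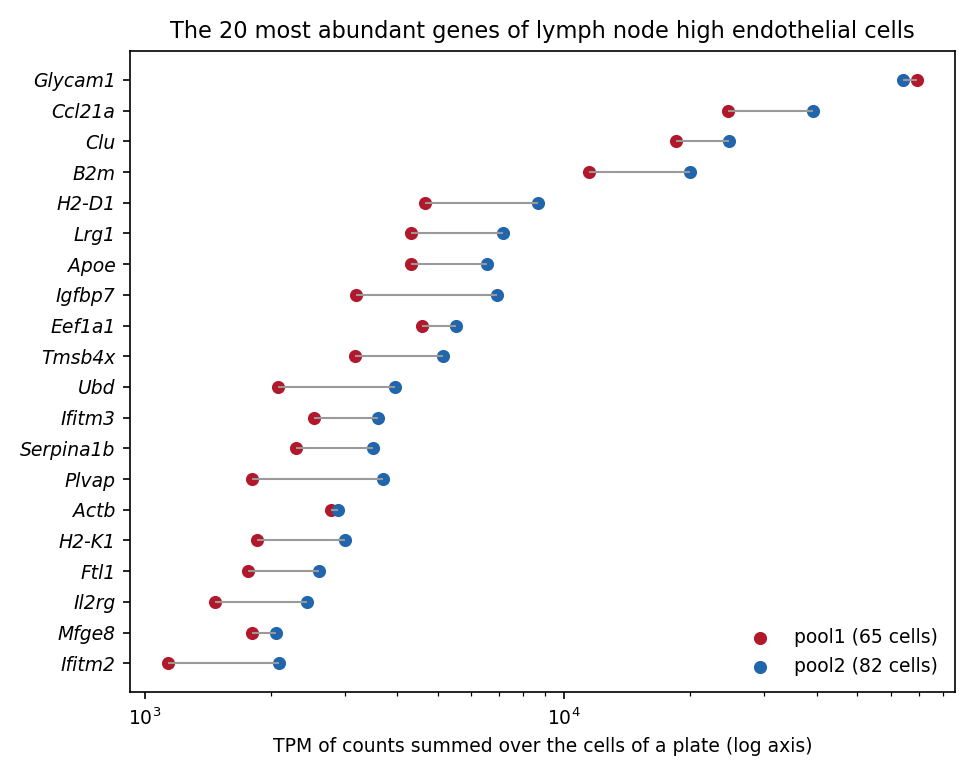
TPM of the 20 most abundant genes on a log axis, from counts summed over the cells of pool1 (65 cells, red) and of pool2 (82 cells, blue). Glycam1 leads on both plates, at 69433 TPM in pool1 and 64204 TPM in pool2, and is the only one of the 20 that is higher in pool1.

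Most genes were found in a small part of the cells. Of 17502 genes with a thinned count in any cell, 424 (2.42%) were found in at least 90% of cells, 0.708% in every cell, and 9010 (51.5%) in under 10%. The median gene was found in 8.90% of cells. For a gene with no thinned count in any cell, the exact interval allows a share of up to 2.49% of cells with a count at this depth.

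Genes for the enzymes that build L-selectin ligands were unequally spread over cells. Of 12 such genes, 3 were found in at least 90% of cells (Chst4, Fut7 and St3gal6), against 2.42% of all genes detected. In at least 50% of cells 7 were found, against 11.3% of all genes detected, and in under 10% of cells 1, against 51.5%. St3gal6, a sialyltransferase, was found in 97.9% of cells at 170 TPM, and its relative St3gal4 in 61.6% at 97.2 TPM. Gcnt1, which starts the core 2 branch, was found in 80.8% of cells at 89.1 TPM. Chst2, another sulfotransferase of the pathway, was also found in 80.8%, at 58.8 TPM, against 1073 TPM for Chst4. Papss2, one of the enzymes that make the sulfate donor, was found in 79.5% at 167.5 TPM and Papss1 in 24.7% at 22.2 TPM. B3gnt3, which extends the core 1 branch on which MECA-79 depends, was found in 24.7% of cells at 22.3 TPM. Fut4 was found in 31.5% at 28.5 TPM, against 973 TPM for Fut7, and St3gal3 in 5.48%.

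Of the 6 sialomucins or related carriers, Glycam1 was the main one by level. Cd34 was found in 96.6% of cells at 260.9 TPM, which puts Glycam1 254.6-fold above it per length. The fold depends on the exon lengths used, and without length Glycam1 stood at 64620 CPM and Cd34 at 867 CPM. Emcn, endomucin, was found in 84.2% at 125.4 TPM. Parm1 was found in 60.3% at 48.4 TPM and Podxl, podocalyxin, in 12.3% at 7.33 TPM. Madcam1, the addressin of mucosal nodes that binds the integrin of gut-homing lymphocytes, was found in 4.11% of cells, with 1470 CPM in the highest cell of pool1 and 658 CPM in that of pool2.

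Of the 10 chemokines of the list 7 were found in under 10% of cells, against 51.5% of all genes detected. After Ccl21a came Cxcl1, which attracts neutrophils, in 62.3% of cells at 308.2 TPM. Ccl19, the other ligand of CCR7, was found in 8.22% at 30.7 TPM, Cxcl12 in 16.4% and Cxcl10 in 9.59%, and Cxcl13, which attracts B cells, had 0 counts in all cells. Among the other atypical receptors, Ackr2 was found in 38.4% of cells, Ackr4 in 2.74% and Ackr3 in 0.685%.

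Adhesion genes were led by those of junctions and of the immunoglobulin family. Esam was found in 96.6% of cells at 477 TPM, Icam2 in 83.6% at 252.96 TPM, Icam1 in 85.6% at 226.4 TPM, F11r and Jam3 each in 84.2%, at 170 TPM for F11r and 148.01 TPM for Jam3. Vcam1, a ligand of integrin alpha 4, was found in 54.1% at 32.5 TPM. The endothelial selectins were scarce, Selp in 13.7% of cells at 14.0 TPM and Sele in 6.16% at 9.87 TPM.

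Enpp2, autotaxin, which makes lysophosphatidic acid for lymphocyte passage, was found in every cell at 1311 TPM, with a lowest, median and highest cell of 289.4, 2136 and 5692 CPM in pool1 and 1050, 3428 and 12539 CPM in pool2. S1pr1, a receptor for sphingosine 1-phosphate that steadies endothelial junctions, was found in 98.6% of cells at 356.3 TPM, and the exporter of its ligand, Spns2, in 44.5% at 45.5 TPM. Of the 12 genes for the lymphotoxin receptor and NF-kB, Nfkbia, the inhibitor that NF-kB itself induces, was found in 99.3% of cells at 1291 TPM and Tnfrsf1a in 83.6% at 202.5 TPM. The receptor Ltbr was found in 47.3% at 51.3 TPM, and Nfkb2 and Relb, the subunits of the non-canonical arm, in 65.8% at 66.4 TPM and in 63.0% at 81.5 TPM.

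Of 14 genes of the secretory pathway 9 were found in at least 90% of cells, against 2.42% of all genes detected. All 14 were found in at least 50% of cells, against 11.3% of all genes detected. Among the 9 were Hspa5, the main chaperone of the endoplasmic reticulum, in 99.3% at 555 TPM, P4hb in 98.6% at 725 TPM and Xbp1, a factor that expands this compartment, in 98.6% at 621 TPM. MHC class I and its peptide supply had 5 of 9 genes in at least 90% of cells, against the same 2.42%. Of 12 interferon-stimulated genes 1, Ifitm3, was found in at least 90%, again against 2.42% of all genes, while Rsad2 and Ifit3 were found in 0.685% each.

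Genes of other vessel types were mixed. Of the capillary list, Plvap was found in all cells, Cd300lg, a mucin-like receptor, in 93.2% at 652 TPM and Kdr, a receptor for VEGF, in 65.1% at 32.5 TPM, whereas Cd36, Gpihbp1, Rgcc and Car4 were found in at most 3.42%. Of 8 arterial genes none was found in at least 50% of cells, against 11.3% of all genes detected, and 8 genes are too few to fall clearly below that share. Bmx had 0 counts, and Sox17 and Dll4 were the highest, in 38.4 and 34.9%. Venous genes were found in part of the cells, Nrp2 in 54.1%, Nr2f2, the factor that sets venous fate, in 50%, Ephb4 in 43.8%, Vwf in 29.5%, Aplnr in 6.16% and Bmp4 in 5.48%. Of 11 basement membrane genes Sparc was found in 97.9% of cells at 421 TPM, Col4a1 in 74.0% at 58.6 TPM, and Lama4, Lamb1 and Nid2 in at most 6.16%.

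Markers of epithelial, mural, leukocyte and lymphatic cells were each found in fewer than 10% of cells, as were 51.5% of all genes detected. All 6 epithelial genes had 0 counts in the kept cells, and of the 6 mural and fibroblast genes Acta2 and Pdgfra had 0 counts and the others were found in 1 or 2 cells each. The 6 leukocyte genes were found in 2.05 to 4.79% of cells, with a summed level of 24.1 CPM in pool1 and 52.1 CPM in pool2. Of 6 lymphatic genes Reln had 0 counts, Prox1 and Pdpn were found in 0.685% of cells each, and Flt4 in 7.53%. Of 5 erythroid and platelet genes Pf4, a chemokine best known from platelets, was found in 82.9% of cells at 1330 TPM. The others of that list were found in at most 2.05%, and the list took up to 14.5% of the counts of a cell, with Hbb-bs, a haemoglobin gene, at 4.94 CPM in the highest cell of pool1 and 75655 CPM in that of pool2. Of 8 proliferation genes 7 were found in at most 7.53% of cells, against the same 51.5% of all genes in under 10%. The other was Pcna, also used in DNA repair, in 45.9%.

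**Figure D3:**
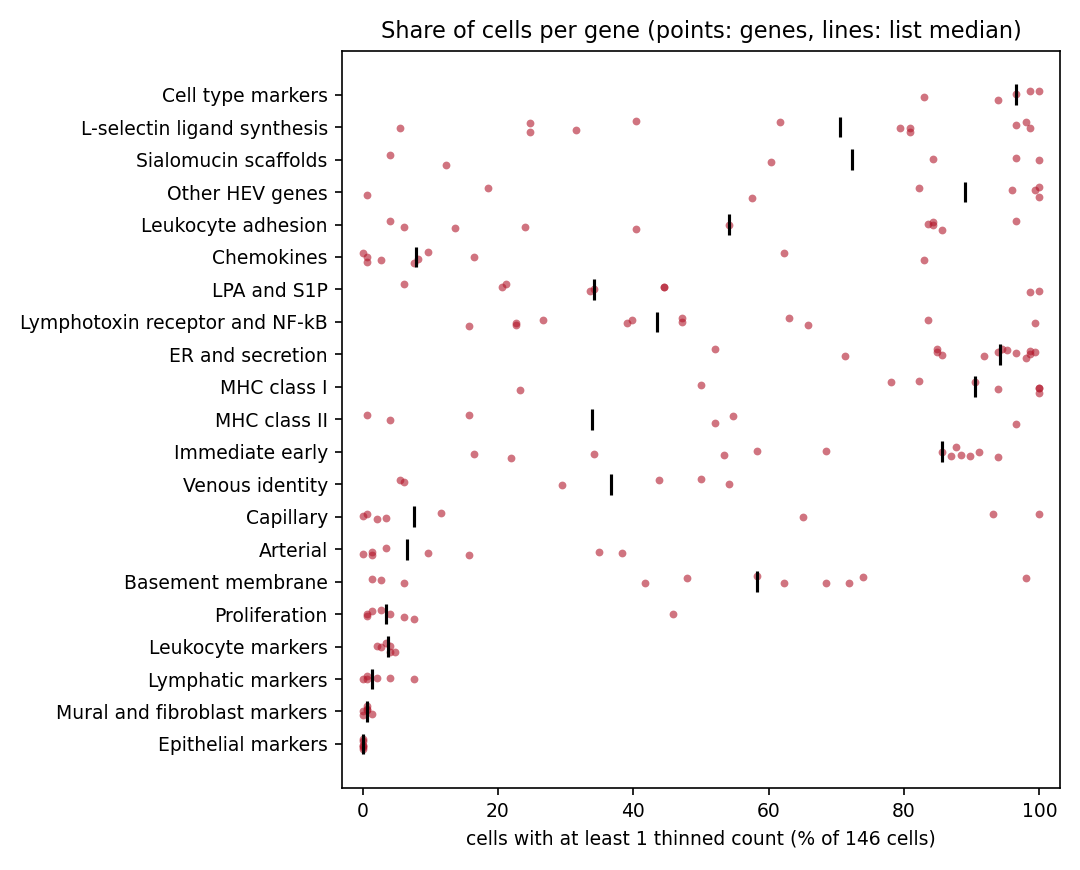
Share of the 64 cells of pool1 and 82 of pool2 with at least 1 thinned count for each gene of 21 lists, with 1 point per gene and a line at the list's median. Markers of high endothelial cells and secretory genes lie towards 100%, and epithelial, mural, lymphatic and leukocyte markers lie near 0%.

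Cell-to-cell variation was measured on each plate by itself. There were 4397 genes with a mean of at least 20 CPM and a thinned count in at least 20% of cells on both plates. For each, the variance over cells of log2(CPM + 10) was divided by the running median over genes next to it in rank by mean. For the most abundant genes, such as Ccl21a and Clu with means of 14693 and 28971 CPM in pool1, this took in genes of far lower mean. Of the 4397 genes 260 (5.91%) were in the top 10% on both plates, which is 59.1% of each plate's list of 440. Across genes, which are not independent, the Spearman rho of the ratios of the plates was 0.637, and the same genes share their mean level and length on both plates. The call depended on level: 0.527% of genes with a mean under 100 CPM on the lower plate were called, 21.8% of those from 100 to under 300 CPM and 32.2% of those at 300 CPM or more. At the threshold, Caprin1 was just inside in pool1 with a ratio of 1.1018 and Pcna just outside with 1.1016, and in pool2 Anxa5 was inside with 1.10605 and AU021092 outside with 1.10551. Some of the variable genes moved with the number of genes found per cell, such as Serpinb1a with a rho of 0.53 in pool1 and 0.49 in pool2 and Ubd with 0.36 and 0.47, and the part of this in their variance was not tested.

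Ccl21a stood far above all other genes in this measure, with ratios of 31.9 in pool1 and 28.9 in pool2. Next came the immediate early genes Egr1 (7.72 in pool1, 6.36 in pool2), Fos (7.92 and 5.70) and Jun (5.78 and 4.59), then Clu (7.45 and 4.44), Ier2 (4.47 and 4.27) and Ubd (3.76 and 4.07). Others among the 20 most variable genes were Sult1a1, a phenol sulfotransferase, Cd300lg, Cfb, complement factor B, Serpinb9, an inhibitor of granzyme B, Tgtp1, an interferon-inducible GTPase, Prnp, the prion protein, Cd74, Slc2a1, a glucose transporter, Susd2, Serpinb1a, an inhibitor of neutrophil elastase, Dusp1 and Tgfbi, a matrix protein. All 5 markers were called variable on both plates, as were Apoe, Lrg1, Igfbp7 and Lifr of the other high endothelial list, to be read against 32.2% of genes at 300 CPM or more. Ggt5 and Ch25h, the other 2 tested members of that list, were also called, to be read against 21.8% in their class of 100 to under 300 CPM. B2m lay at the other end, with ratios of 0.406 in pool1 and 0.271 in pool2.

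**Figure D4:**
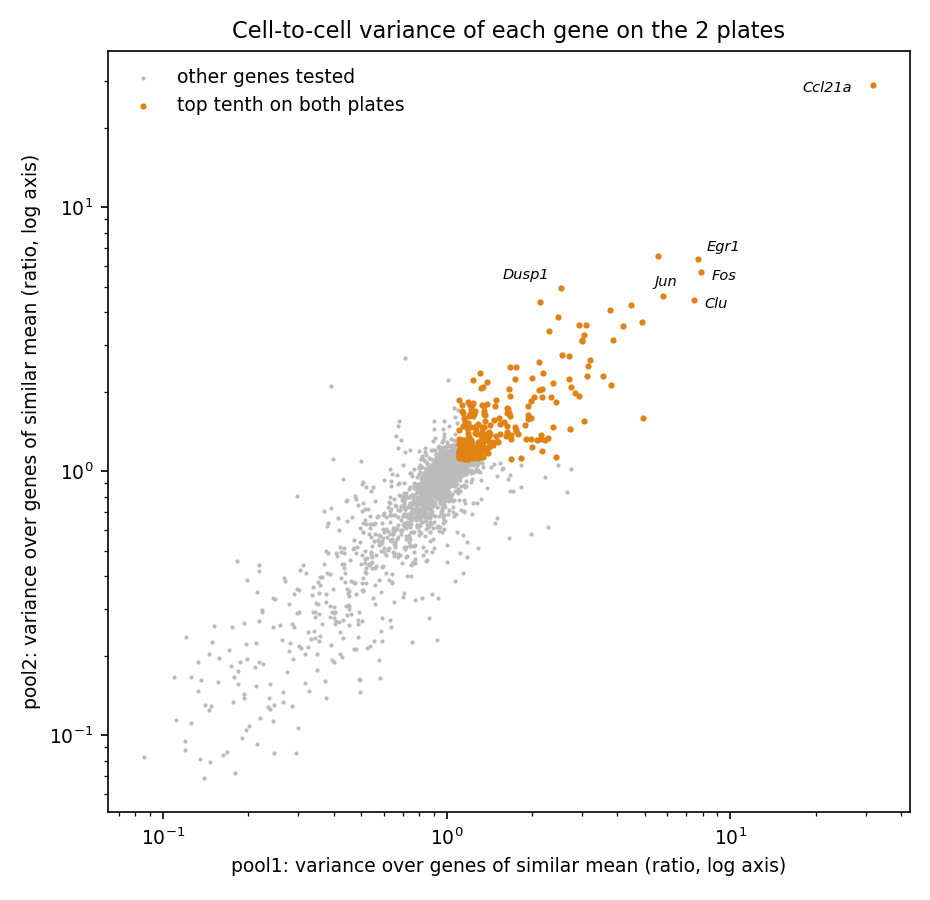
Variance over cells divided by the running median of genes next in rank by mean, in pool1 and in pool2, for 4397 genes on log axes. The 260 genes in the top 10% on both plates are orange, and Ccl21a lies apart from them at 31.9 in pool1 and 28.9 in pool2.

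The levels of Ccl21a fell into a high and a low range on both plates. Under 100 thinned counts were found in 16 of 64 cells of pool1 and 22 of 82 of pool2, or 26.0% of all (19.1 to 33.9%). The highest of these had 550 CPM in pool1 and 560 CPM in pool2, and the lowest of the other cells had 1980 CPM in pool1 and 4160 CPM in pool2, so no cell lay between. The boundary of 100 was set after the values were seen. Among the low cells, 12 in pool1 and 13 in pool2 had no thinned count at all. Reads can be shared with near-identical copies of Ccl21a, and the part of these copies in the low range was not tested. The other cells had a median of 17870 CPM in pool1 and 26045 CPM in pool2, up to 57040 CPM in pool1 and 81230 CPM in pool2. No tested gene reached a Spearman rho of 0.4 or of -0.4 with Ccl21a on both plates, and its rho with the number of genes found per cell was 0.02 in pool1 and -0.05 in pool2. The other markers were no exception, with rho for Glycam1 and Ccl21a of 0.05 in pool1 and -0.06 in pool2.

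Pairs of genes that went up and down together over cells were then sought among the 260 variable genes. These rho values are descriptions over 64 cells of pool1 and 82 of pool2, which share their plate, and the thinning to 1 depth. Of 33670 pairs, 22 (0.0653%) had a rho of at least 0.4 on both plates and 2 (0.00594%) of -0.4 or less on both. The negative pairs were Glycam1 with Crip2 and Sult1a1 with Hyal2, and with Pearson r 0 negative pairs were called. None of the 10 pairs among the 5 markers was called, with the highest for Chst4 and Fut7 with 0.24 in pool1 and 0.22 in pool2.

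Immediate early genes, which cells switch on within minutes of a stimulus, formed the largest group. Of the 45 pairs among the 10 tested members of that list, 15 were called, against 0.00233% of the 9664606 pairs among all 4397 genes tested. Negative pairs, of -0.4 or less on both plates, made up 0.000114% of those pairs and 0 of the 45. Egr1 and Junb had a rho of 0.57 in pool1 and 0.58 in pool2, Fos and Jun of 0.52 in pool1 and 0.50 in pool2, and Ier2 and Junb of 0.47 in pool1 and 0.67 in pool2. Nfkbiz, a regulator of NF-kB, had a rho of 0.55 with Egr1 on each plate. Klf2 and Klf4, factors that shear flow induces in endothelium, were in none of the called pairs. Single cells ranged widely: Egr1 had a lowest, median and highest level of 0, 615 and 5190 CPM in pool1 and 0, 1220 and 5360 CPM in pool2, and Fos of 0, 1250 and 6400 CPM in pool1 and 0, 1385 and 6210 CPM in pool2. Egr1 was absent from 8 cells of pool1 and 11 of pool2 at this depth. The rho of Egr1 with the library number, which stands for well order as far as it shows one, was 0.12 in pool1 and 0.08 in pool2.

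The CArG box, the site of serum response factor that many immediate early promoters carry, was sought in the same window of 250 bases, with 6 A or T between CC and GG on either strand. It was found in 1.47% of all windows and in 1 of the 11 members of the list with a RefSeq entry, Zfp36, whose protein speeds the decay of messenger RNA. That window, chr7:28379229-28379478 on the minus strand of GRCm38.p6, is shown with the box in capitals.
Zfp36: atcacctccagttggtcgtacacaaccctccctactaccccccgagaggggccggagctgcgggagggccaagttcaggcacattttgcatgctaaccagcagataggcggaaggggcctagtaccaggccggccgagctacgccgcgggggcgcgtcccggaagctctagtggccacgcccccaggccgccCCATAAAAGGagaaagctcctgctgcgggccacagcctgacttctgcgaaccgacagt
Zfp36 was found in 93.8% of cells and had a rho with Fos of 0.53 in pool1 and 0.50 in pool2. The letters TGACGTCA, a site of cyclic AMP factors, were found in 1.55% of windows and, within the list, in Dusp1 alone. Egr1 and Ier2 had no entry.

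A second group was that of MHC class II, the molecules that present peptides to CD4 T cells. Cd74, the invariant chain that guides class II molecules, was found in 96.6% of cells at 1344 TPM, H2-Aa in 54.8% at 54.1 TPM and H2-Ab1 in 52.1% at 74.4 TPM, while H2-Eb1 was found in 4.11% and Ciita, the master regulator of the class, in 0.685%. All 3 pairs among Cd74, H2-Aa and H2-Ab1 were called in the search over all genes tested, against 0.00233% of its 9664606 pairs. H2-Aa and H2-Ab1 were not called variable on both plates, so these pairs lay outside the search among variable genes. Cd74 and H2-Aa had a rho of 0.63 in pool1 and 0.73 in pool2, Cd74 and H2-Ab1 of 0.44 and 0.48, and H2-Aa and H2-Ab1 of 0.40 and 0.46. Cd74 also had a rho of 0.47 in pool1 and 0.41 in pool2 with B2m. In pool2 that rho was 0.37 when ribosomal RNA and mitochondrial features, or Glycam1, Clu and Ccl21a, were left out before thinning, which ends the call. Leukocyte markers were found in 4.79% of cells at most, and their part in the class II levels was not tested. With the 6 cells that hold 3 leukocyte or mural markers left out, the rho of Cd74 and H2-Aa was 0.61 in pool1 and 0.72 in pool2. Cd74 varied from 0 to 3790 CPM in pool1 and from 0 to 5690 CPM in pool2, with medians of 485 CPM in pool1 and 895 CPM in pool2.

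Class II promoters are known for a Y box, an inverted CCAAT that NF-Y binds. Of the 3 members of the list with a RefSeq window, H2-Aa and H2-Eb1 held CCAAT on at least 1 strand, against 33.8% of all windows. The window of H2-Aa, chr17:34287824-34288073 on the minus strand of GRCm38.p6, is shown with the box in capitals.
H2-Aa: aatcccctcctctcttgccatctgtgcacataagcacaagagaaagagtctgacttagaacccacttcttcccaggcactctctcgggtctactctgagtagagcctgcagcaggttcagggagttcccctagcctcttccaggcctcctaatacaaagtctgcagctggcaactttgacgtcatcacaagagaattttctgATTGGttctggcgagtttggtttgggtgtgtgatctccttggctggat
H2-Ab1, Cd74 and Ciita had no entry.

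The last group, with pairs from both searches, turned on Glycam1. Its rho was 0.54 in pool1 and 0.59 in pool2 with Ttn, which encodes the muscle protein titin and was found here in 51.4% of cells at 4.24 TPM. With Ptgds, prostaglandin D synthase, it was 0.45 in pool1 and 0.48 in pool2, and with Pglyrp1, a protein that binds bacterial peptidoglycan, 0.44 and 0.55. Genes that ran against it, picked out after their values were seen, were Aqp1, a water channel of capillary and venular endothelium, with -0.47 in pool1 and -0.52 in pool2, Plvap with -0.41 and -0.53, and Crip2 with -0.41 and -0.43. Aqp1 was found in 23.3% of cells, and 51 of 64 cells of pool1 and 61 of 82 of pool2 had none. Since a thinned cell has a fixed total, an abundant gene takes counts from others. With the other genes thinned after Glycam1, Clu and Ccl21a were left out, rho with Glycam1 was -0.52 in pool1 and -0.52 in pool2 for Aqp1, -0.33 and -0.44 for Plvap, -0.36 and -0.39 for Crip2, and 0.58 in both plates for Ttn. Glycam1 and Clu had a rho of 0.38 in pool1 and 0.68 in pool2 and were not called.

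**Figure D5:**
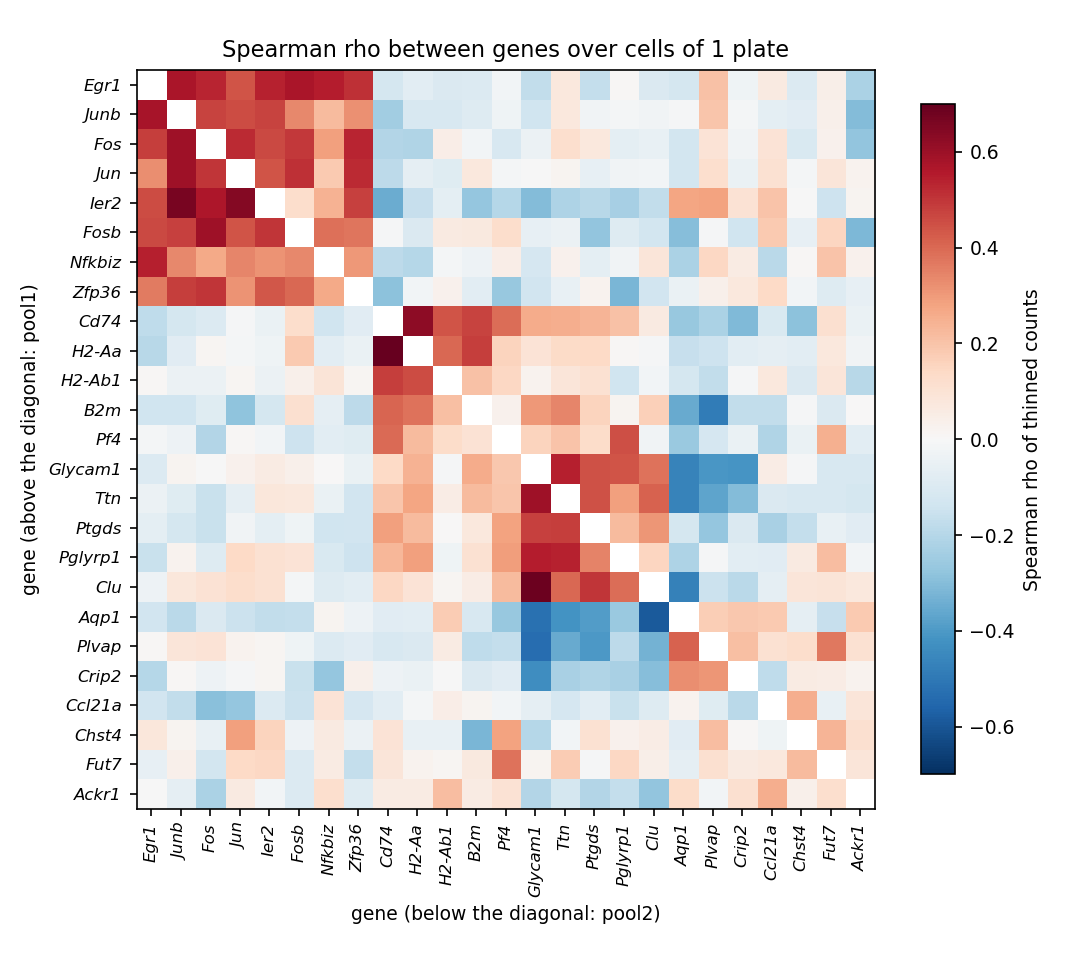
Spearman rho between 25 genes over the cells of 1 plate, with pool1 (64 cells) above the diagonal and pool2 (82 cells) below it. Red appears on both plates for immediate early genes, for Cd74 with H2-Aa and H2-Ab1, and for Glycam1 with Ttn, Ptgds, Pglyrp1 and Clu. Glycam1 is blue against Aqp1, Plvap and Crip2 on both plates. Its partners are paler in places, such as Pglyrp1 with Plvap at -0.009 in pool1 and -0.18 in pool2. Clu with Pglyrp1 is at 0.15 in pool1 and 0.39 in pool2.

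The plates differed from each other in level. Of 6789 genes with at least 20 CPM on the higher plate, 1.61% were at least 2-fold higher in pool1 and 22.1% (1502 genes) at least 2-fold lower, so 6.77% of the calls were higher, against 39.0% with size factors in place of totals. The median log2 ratio was -0.54, beside the larger share of ribosomal RNA in pool1. Relative to that shift 404 genes (5.95%) were higher and 509 (7.5%) lower. Glycam1 was 0.77 above the shift on the log2 scale. Aplnr, with 0.0164 CPM in pool1 and 38.0 CPM in pool2, and Ifit3, with 0.0983 CPM in pool1 and 29.9 CPM in pool2, were far apart but had a thinned count in at most 11.0% of cells on either plate. Of genes with at least 50 CPM and a count in 30% of cells on the higher plate, those lowest in pool1 were Paip1, a partner of the poly(A)-binding protein, with 3.57 CPM in pool1 and 67.1 CPM in pool2, Mkrn1 with 3.85 and 52.9, Samd9l with 4.84 and 60.0, Slc39a1, a zinc importer, with 39.7 and 412.8, Cbx3 with 41.1 and 372.7, and Lrrc8a, a subunit of a volume-regulated channel, with 35.7 and 280.7. In the other direction, under the same limits, Atl3 had 83.6 CPM in pool1 and 30.3 in pool2, 2.76-fold higher, followed by Caml at 2.49-fold, Igf1r at 2.35-fold, Pde4b at 2.21-fold, Ndst1 at 2.12-fold and Kmt2c at 2.07-fold. Outside these limits Ccl19 had 32.7 CPM in pool1 and 5.63 CPM in pool2.

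Lists moved with the plates as well. Of 13 immediate early genes 7 were at least 2-fold lower in pool1, against 22.1% of all genes, with a median log2 ratio of -1.03, or -0.49 relative to the shift. Relative to the shift 2 of the 13 were at least 2-fold lower, against 7.5% of all genes. The log2 ratio relative to the shift was -1.83 for Jund, -1.61 for Klf2, -0.97 for Zfp36 and 0.15 for Fos. Of 4 proliferation genes that could be compared, 3 were at least 2-fold higher in pool1, against 1.61% of all genes. These sums rest on few cells: Mki67 reached 1645 CPM in a single cell of pool1, and it was found in 6.25% of cells of pool1 and 6.10% of pool2. None of the 5 markers was 2-fold apart, against 1.61% of all genes higher and 22.1% lower in pool1, and 5 genes are too few to fall clearly below these shares. The labels do not say how the plates differ in animal or day, so the plate and the cells on it cannot be told apart.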

How the data were processed

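The authors deposited raw counts for each gene in each cell. Per the labels, Smart-seq2 was used with 23 cycles of amplification, and single reads of 75 bp were taken. The submitters' processing notes name FastQC 0.11.4, STAR 2.4.1b, Subread 1.4.6-p2 and the build mm10 (GRCm38). Annotation and strand setting: not given in the sources used here. The kit does not mark strand, so reads of a gene and an antisense partner cannot be told apart. Repeated symbols among 51826 features were summed, which left 51734. Exon lengths and positions came from GENCODE mouse release 21, which holds 92.1% of the features and 99.3% of the counts of these cells.

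Counts were summed over cells and scaled to CPM, or divided by the union exon length and scaled to TPM. The ranking by TPM left out haemoglobin, antigen receptor, mitochondrial and ribosomal (RNA and protein) genes and gene models without a proper symbol, and the named variable genes left out the same. For shares, variances and correlations each cell was thinned to 100000 counts without replacement (seed 1). Variances used log2(CPM + 10). For ratios between plates, levels under a floor of 3 counts were raised to it, which is 0.0492 CPM in pool1 and 0.0341 CPM in pool2. Over all kept cells 3 counts are 0.0201 CPM. Named genes were the 5 markers, the top 20 by TPM, members of 28 gene lists, the 20 genes with the highest smaller ratio of variance, up to 3 partners of each marker and variable gene at a rho of at least 0.4, and 6 genes each way between plates with at least 50 CPM and a count in 30% of cells. Genes with a rho of -0.4 or less lie outside this rule. The members and lists were chosen with earlier results of these data known. Doublets were not called, because the sort was meant to place 1 cell in each well. Whether each well held only 1 was not tested. The variance, correlation and plate steps were first tested on simulated counts. Python 3.11.15, numpy 2.4.6, pandas 2.3.3, scipy 1.17.1 and matplotlib 3.10.9 were used. Alternatives covered scaling, thinned depth, filters, plates and the cell rule. Results for a few genes that the naming rule would include are not reported here.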

Additional observations from a re-analysis of the deposited data

How the results depend on the processing

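No paired analysis was possible because the wells carry no replicate number or animal that is shared between gates, and no test was made. Of 51 alternatives for 7 results, 5 moved the value by over 1.5 times (a count or share of genes) or out of its 95% interval (a share of cells) and 46 did not. The share of cells with 4 of the 5 markers was 100% of 82 cells without plate pool1, 95.3% of 64 cells without plate pool2, and 95.9% in another random thinning draw. Genes variable on both plates made up 3.32% of those tested with the Fano factor in place of the log variance, against 5.91%, and 69 of the 260 were among them. The number of correlated pairs was 46 with the 11 libraries of pool1 put back against 24, and another draw shared 19 of the 24. Pearson r shared 13 of the 24. Thinning without ribosomal RNA and mitochondrial features shared 17, as did thinning without Glycam1, Clu and Ccl21a. These settings do not count as moved, because only the number of pairs was compared and not which pairs they were. Against 2 negative pairs of variable genes, 0 were called with Pearson r, 50000 counts, thinning without ribosomal RNA and mitochondrial features and thinning without Glycam1, Clu and Ccl21a, and 1 without the 6 cells with other markers and in another draw. Genes 2-fold apart between plates numbered 905 with size factors and 3226 at a minimum of 5 CPM, against 1611. The share of cells low in Ccl21a stayed between 25.0 and 28.0% under its 7 alternatives, and the top 20 by TPM shared at least 16 genes under each of 7. The alternatives for Ccl21a, the second draw and the thinning without 3 genes were chosen after seeing the data. With no animals named, spread between animals is unknown, and 100000 counts per cell limit what a share can show of genes under about 10 CPM.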

Other observations

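A few gene pairs outside the groups above were called on both plates. Il4i1, an amino acid oxidase, and Lrp2, the endocytic receptor megalin, had a rho of 0.44 in pool1 and 0.41 in pool2, and Lrp2 was found in 34.2% of cells at 22.8 TPM. Without ribosomal RNA and mitochondrial features the rho in pool2 was 0.399, just under the call. Pltp, a phospholipid transfer protein, had a rho with Plvap of 0.55 in pool1 and 0.40 in pool2, a call that was lost with 0.36 in pool2 when ribosomal RNA and mitochondrial features, or Glycam1, Clu and Ccl21a, were left out before thinning. Ctsd, a lysosomal protease, and Eng, a receptor of the TGF-beta family, had 0.46 in pool1 and 0.52 in pool2. Serpina3f and Serpina3g had 0.56 in pool1 and 0.43 in pool2, which is uncertain, since these neighbours are close copies of each other.

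Pf4 was found in 82.9% of lymph node cells (75.8 to 88.6%), against 6.12% of TU_HEV cells and 0.662% of TU_EC cells, while Ppbp, another abundant platelet gene, had 0 counts. Its rho with the number of genes found per cell was 0.42 in pool1 and 0.44 in pool2.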
